A study of Mus musculus with 16 samples.

Results

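The genes described here are Pou2af1, Mef2c, Cxcr4, Klhl6, Fcrla and Mzb1, 6 genes tied to B lymphocytes and to the germinal centre, taken by name from the deposited table of 2438 genes. All 6 were in it. The table held only genes that the authors' own test had called different between these same libraries, at an adjusted p under 0.05 (largest 0.0497). The 6 were picked from it with earlier results and their co-variation across the 16 libraries known. The contrast and the co-variation are therefore given as descriptions. Where p-values of the contrast appear below, they come from the libraries that chose the genes and are no separate test of them. The tested mice were Ephb4-IKO (KO), which lacked the receptor tyrosine kinase EphB4 in intestinal epithelial cells (n = 7, replicates 1 to 5, 7 and 8). They were set against Ephb4 fl/fl mice with the floxed gene (flox, n = 9, replicates 1 to 7, 9 and 10). KO and flox mice alike were 8 weeks old when a high fat diet began, and they stayed on it for 19 weeks. Duodenal epithelium, snap frozen in bulk, is the tissue named by the labels, and the design text has proximal small intestine. No source used here gives the recombinase line, the strain or the sex, and nothing states whether each library is 1 mouse, although the numbers of libraries and mice match. If libraries share mice or were split technically, their spread is partly technical.

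B lymphocytes of the gut wall sit in Peyer's patches, isolated lymphoid follicles and the lamina propria. In a germinal centre, activated B cells divide, mutate and switch their immunoglobulin genes, and some leave as plasma cells, which secrete antibody in large amounts. Pou2af1 encodes a coactivator that binds POU-domain factors on the octamer motif of immunoglobulin and other B cell genes and is needed for germinal centres in mice. Mef2c, a MADS-box transcription factor, acts in B cell activation and also in muscle, endothelium and myeloid cells. Cxcr4, the receptor for the chemokine Cxcl12, positions B cells in the dark zone of the germinal centre and is found on many other leukocytes and on endothelium. Klhl6 encodes a kelch-like adaptor of ubiquitin ligases involved in B cell receptor signalling. Fcrla encodes an intracellular Fc receptor-like protein of B cells. Mzb1 encodes a protein of the endoplasmic reticulum that helps fold and secrete immunoglobulin in marginal zone B cells, B1 cells and plasma cells.

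Promoter windows from RefSeq on GRCm38.p6, from 250 bases before to 50 after the annotated start, are shown for 3 of the genes out of the 4 with a match to a motif searched, to show where the matches lie. The search covered 7 windows of 5 genes (Mef2c has several starts), on both strands, for the octamer core TGCAAAT, the E-box CAGGTG, the PU.1 core GAGGAA, the TATA box TATAAA and the MEF2 consensus. Matches are in capitals, read 5′ to 3′ on the gene's strand.
Pou2af1, chr9:51213440-51213739, plus strand: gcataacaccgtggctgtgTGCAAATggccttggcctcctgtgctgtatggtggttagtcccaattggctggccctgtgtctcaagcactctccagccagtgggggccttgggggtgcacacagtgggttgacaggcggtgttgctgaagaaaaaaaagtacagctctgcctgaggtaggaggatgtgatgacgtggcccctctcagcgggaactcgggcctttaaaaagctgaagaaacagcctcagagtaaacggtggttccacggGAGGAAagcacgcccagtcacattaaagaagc
Fcrla, chr1:170927534-170927833, minus strand: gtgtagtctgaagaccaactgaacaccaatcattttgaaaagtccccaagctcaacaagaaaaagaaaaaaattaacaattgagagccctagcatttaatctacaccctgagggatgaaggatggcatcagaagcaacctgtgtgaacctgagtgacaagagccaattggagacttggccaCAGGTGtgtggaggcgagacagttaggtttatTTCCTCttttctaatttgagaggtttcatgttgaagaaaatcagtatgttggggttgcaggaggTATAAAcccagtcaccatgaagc
Cxcr4, chr1:128592250-128592549, minus strand: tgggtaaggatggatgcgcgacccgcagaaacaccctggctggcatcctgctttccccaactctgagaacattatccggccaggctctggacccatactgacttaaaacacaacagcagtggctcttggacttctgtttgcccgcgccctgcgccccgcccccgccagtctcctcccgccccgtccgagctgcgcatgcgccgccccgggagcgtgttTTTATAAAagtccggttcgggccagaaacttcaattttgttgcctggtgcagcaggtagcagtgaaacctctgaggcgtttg
In Pou2af1 the first capitals are the octamer core at -231 to -225 and the second are GAGGAA at 19 to 24. An octamer core was in 4.02% of the 32851 RefSeq promoter windows of this length. In Fcrla they are CAGGTG (in 20.2% of all windows), GAGGAA on the opposite strand (28.3%) and TATAAA, which lies after the start (13.6%). The run in Cxcr4 is TATAAA read on both strands at -32 to -25, the 2 matches sharing its middle bases. Klhl6 and the most downstream Mef2c window had no match, the other Mef2c windows had GAGGAA and TATAAA, and none of the 7 had the MEF2 consensus (3.19% of all windows). A match is a description of the letters and not a binding site.

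The 6 genes were all higher in KO than in flox in the authors' deposited table, by log2 fold changes from 1.15 for Mzb1 to 2.28 for Cxcr4. The rule fixed that count, and of the 16488 genes in the authors' adjustment 14.8% were listed at all and 6.97% as higher in KO. The values are read counts divided by 1 size factor per library, called normalised counts below. The difference was not present in every KO library. KO replicates 1, 4, 5, 7 and 8 carried the high values, KO replicates 2 and 3 lay at the level of most flox libraries, and flox replicate 2 lay near the high KO libraries. The groups overlapped for each of the 6 genes. In these bulk samples, more B lineage cells and more transcript per cell cannot be told apart.

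Depth and tissue set the frame for these values. Each KO library had 3592468 to 4555872 reads in listed genes and each flox library 4237178 to 5316273, while total depth is unknown. Ephb4 was lower in KO, at 23.3 to 84.7 normalised counts in KO against 102.7 to 353.8 in flox, with KO replicate 1 highest in KO. The 8 listed enterocyte markers summed to 379826 to 622750 in KO and 580162 to 824430 in flox, by far the largest of the marker sums, as the label of an epithelium has it. Pancreatic enzymes (22 of 28 listed) summed to 384 to 1797 in KO. In flox they summed to 392 to 518 in replicates 1, 2, 3 and 5, and to 7329 to 145063 in replicates 4, 6, 7, 9 and 10.

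Of the 2 transcription regulators, Pou2af1 (9:51213708 to 51240080, GRCm38, plus strand, ENSMUSG00000032053) was the more abundant. In KO its level ran from 60.7 through a median of 269 to 681 normalised counts. In flox it ran from 21.3 through a median of 52.5 to 232. Replicate 1 was the highest KO library and replicates 2 and 3, at 60.7 and 69.5, were the lowest, while flox replicate 2 stood alone at 232, above the next flox library at 116. Pou2af1 averaged 274 ± 208 in KO and 75.8 ± 67.8 in flox (SD, n = 7 and 9), a ratio of 3.61. On the log2(value + 1) scale the difference was 1.86 ± 0.55 (SE), and the authors' deposited table gave 1.85 with an adjusted p of 0.0147. A non-coding gene within an intron, on the same strand, overlaps Pou2af1 in GENCODE M21.

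Mef2c (13:83504034 to 83667080, plus strand, ENSMUSG00000005583) was also highest in KO replicate 1 and flox replicate 2. Its lowest KO libraries were replicates 3 and 2, at 11.1 and 24.3, the same 2 as for Pou2af1 in the other order. The lowest flox library was replicate 7, where that of Pou2af1 was replicate 3. Its KO values ran from 11.1 in replicate 3 through a median of 152 to 321 in replicate 1. Its flox values ran from 7.65 through a median of 15.3 to 172 in replicate 2, with every other flox library at 47.8 or less. That 1 flox library was above the KO median, and 3 KO libraries were above it. Means were 146 ± 107 in KO and 38.3 ± 52.0 in flox (SD, n = 7 and 9), 3.80-fold apart, with a log2 difference of 1.99 ± 0.71 (SE). The authors' adjusted p was 0.0476 in their deposited table. It is the member closest to the limit of 0.05, followed by Fcrla at 0.0475, and genes just outside the limit were not analysed here.

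Cxcr4, the chemokine receptor (1:128588199 to 128592293, minus strand, ENSMUSG00000045382), had the highest ratio of the 6. KO libraries held 6.04 (replicate 3) to 246 (replicate 5), with a median of 123 normalised counts. Flox libraries held 2.20 (replicate 10) to 88.4 (replicate 2), with a median of 11.5. KO replicate 7, at 85.1, was just under the top flox library, and 4 KO libraries were above it. The mean was 123 ± 93.7 in KO and 25.3 ± 27.8 in flox (SD, n = 7 and 9), a ratio of 4.86, and the log2 difference was 2.19 ± 0.77 (SE). Within either group its level had the widest range of the 6, 40.6-fold from lowest to highest in KO and 40.2-fold in flox. Both folds rest on a lowest value of few reads and are uncertain. There 1 read was worth 1.01 normalised counts in KO replicate 3 and 1.10 in flox replicate 10.

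Klhl6, the ubiquitin ligase adaptor (16:19946496 to 19983037, minus strand, ENSMUSG00000043008), ran from 21.5 in KO replicate 2 through a median of 131 to 329 in KO replicate 1. In flox it ran from 13.2 through a median of 24.8 to 88.4 in replicate 2. KO replicate 1 stood far above the next KO library, at 134. The mean of Klhl6 was 122 ± 104 in KO and 35.4 ± 25.2 in flox (SD, n = 7 and 9), with a log2 difference of 1.52 ± 0.52 (SE). The authors' deposited table gave 1.79, the adjusted p being 0.0143, the smallest of the 6.

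Fcrla (1:170917576 to 170927583, minus strand, ENSMUSG00000038421) had the lowest mean normalised count of the 6 in KO. Its KO libraries ran from 6.04 in replicate 3 through a median of 109 to 160 in replicate 1. Its flox libraries ran from 7.65 through a median of 14.4 to 106 in replicate 2. KO replicate 3 was thus below every flox library, but 1 read was worth 1.01 normalised counts there, so that order rests on few reads. Flox replicate 2 was far above the next flox library, at 34.0. A processed pseudogene on the same strand overlaps Fcrla in GENCODE M21, and the library kit is not stated to keep strand. Averages were 88.5 ± 56.7 in KO and 26.5 ± 31.1 in flox (SD, n = 7 and 9), and the log2 difference was 1.64 ± 0.64 (SE).

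Mzb1, the immunoglobulin chaperone (18:35647266 to 35649367, minus strand, ENSMUSG00000024353), had the smallest difference. KO libraries ran from 58.4 in replicate 3 through a median of 172 to 416 in replicate 1, and flox libraries from 34.2 in replicate 1 through a median of 93.6 to 157 in replicate 5. The flox order was not that of the other 5 genes: replicates 5, 6, 7 and 9 stood with replicate 2 at 93.6 to 157, while replicates 1, 3, 4 and 10 were at 34.2 to 46.7. Its mean was 178 ± 116 in KO and 80.4 ± 43.2 in flox (SD, n = 7 and 9), 2.22-fold apart, with a log2 difference of 1.10 ± 0.39 (SE). A same-strand protein-coding gene overlaps Mzb1 in GENCODE M21, so how reads were split between them is uncertain. The deposited coordinates of Mzb1 are not those of that release.

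**Figure D1:**
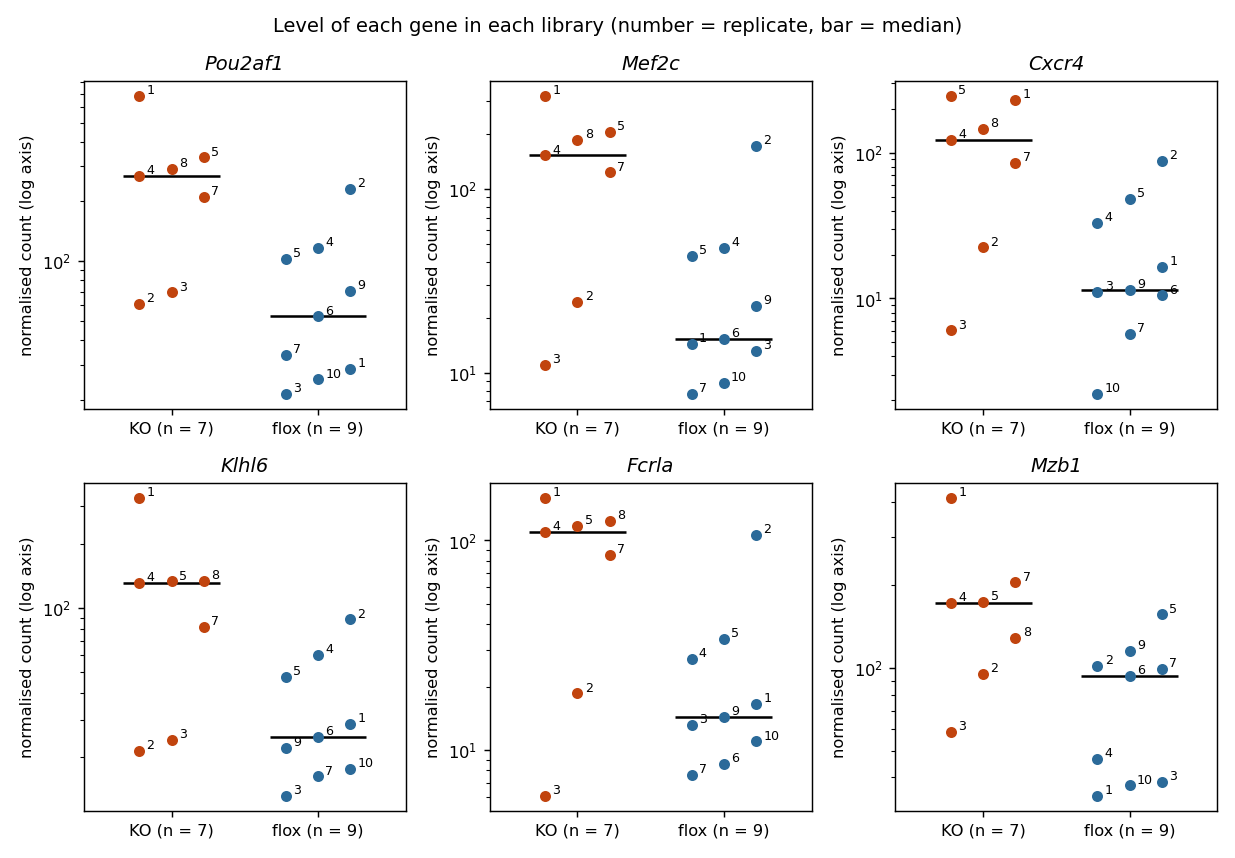
Normalised count (log axis) of each of the 6 genes in every KO library (orange, n = 7) and flox library (blue, n = 9), with the replicate number beside each point and a bar at the median. KO replicates 2 and 3 lie among or below the flox libraries in each panel, and flox replicate 2 is the highest flox library in 5 of the 6, all but Mzb1.

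Per kilobase of the gene length in the deposited table, the order in KO was Mzb1 (197 ± 129 normalised counts per kb), Pou2af1 (107 ± 81.7), Cxcr4 (67.9 ± 51.8), Fcrla (50.7 ± 32.5), Klhl6 (46.8 ± 39.7) and Mef2c (9.27 ± 6.82). In flox it was Mzb1 (88.8 ± 47.7), Pou2af1 (29.7 ± 26.6), Fcrla (15.2 ± 17.8), Cxcr4 (14.0 ± 15.4), Klhl6 (13.6 ± 9.66) and Mef2c (2.44 ± 3.31), all as SD with n = 9. Neighbours differed by less than the SD between libraries, except Mzb1 and Pou2af1 in flox and Klhl6 and Mef2c in flox. The low place of Mef2c goes with its deposited length of 15715 bases, against 905 for Mzb1.

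Apart from Mzb1, the genes moved up and down together from library to library. Pearson's r of log2(normalised count + 1) over all 16 libraries, after each group's mean was subtracted, ran from 0.87 to 0.98 over the 10 pairs without Mzb1, with a median of 0.94. Spearman's rho ran from 0.89 to 0.96. The closest pair was Fcrla and Mef2c, at r = 0.98 and rho = 0.95. Within flox alone (n = 9) the 10 pairs had r from 0.83 to 0.96 and rho from 0.67 to 0.95, and r from 0.72 to 0.94 once the 2 libraries farthest from the median of the first gene were left out. Within KO (n = 7) r ran from 0.91 to 1.00, but KO replicates 2 and 3 stood apart from the other 5, too few for a value without them. These libraries share 1 tissue collection and scaling, and no p is given because co-variation was among the reasons the genes were named.

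Mzb1 followed the other 5 less closely. Its 5 pairs had r from 0.57 to 0.73 and rho from 0.49 to 0.69 over the 16 group-centred libraries. Within flox they had r from 0.25 with Fcrla to 0.58 with Pou2af1, and rho from 0.28 to 0.67. Within KO r was 0.84 to 0.89 and rho 0.64 to 0.75, so the ranges of rho overlapped between the groups. With the 2 farthest libraries left out, KO replicates 1 and 3 in the 4 pairs where Mzb1 was the first gene, r over the centred libraries was 0.34 to 0.44, and it was 0.74 for Pou2af1 without KO replicate 2 and flox replicate 2. Without the 5 flox libraries with pancreatic transcripts the median of the 5 pairs was 0.82, against 0.62 with all libraries, and that of the 10 other pairs was 0.95, against 0.94. Mzb1 made up 12.8% to 39.2% of the summed counts of the 6 genes in KO, with its highest shares in KO replicates 2 and 3, and 12.9% to 58.4% in flox. Whether the relation of Mzb1 to the others differs between KO and flox was not tested.

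**Figure D2:**
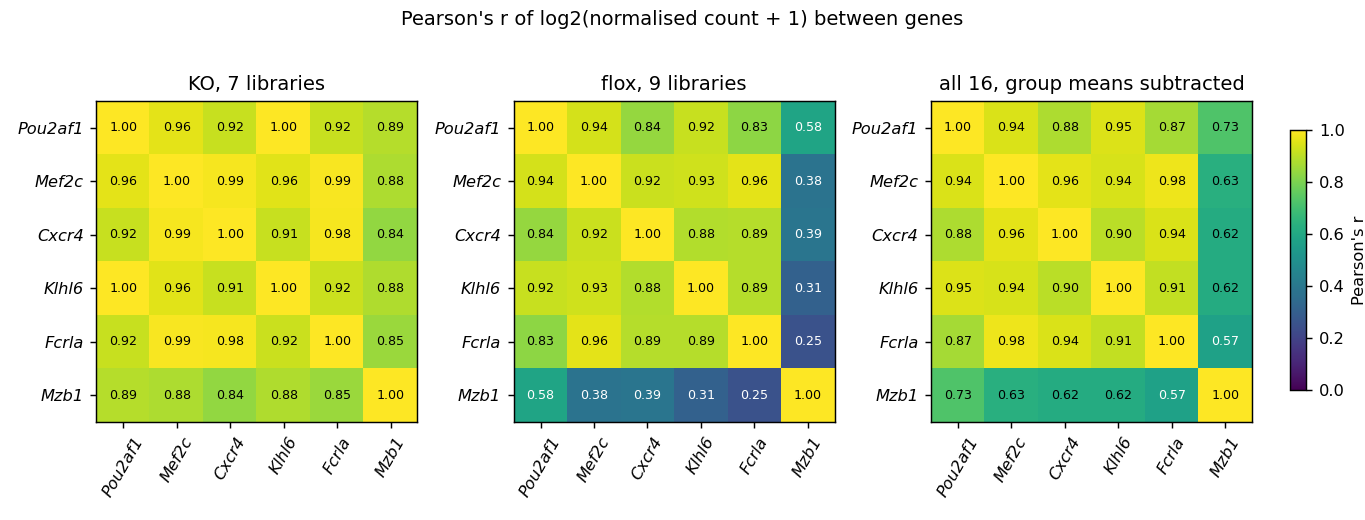
Pearson's r between the 6 genes within KO (n = 7), within flox (n = 9) and over all 16 libraries after subtracting group means, on log2(normalised count + 1). The row and column of Mzb1 stand out in flox, at 0.25 to 0.58, against 0.83 to 0.96 for the other pairs.

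Summed over the 6 genes, KO libraries held 175 to 2138 normalised counts with a median of 957, and flox libraries held 102 to 788 with a median of 205. In 5 KO libraries the sum was above that of every flox library, though KO replicate 7 at 790 exceeded flox replicate 2 at 788 only barely. KO replicates 2 and 3, at 243 and 175, stood below 4 and 5 of the 9 flox libraries. Markers of other cell types moved with this sum. The 13 of 20 pan-leukocyte markers that were listed summed to 2030 to 7185 in KO and 1706 to 5116 in flox, with flox replicate 2 highest in flox and KO replicates 2 and 3 lowest in KO. Flox replicate 2 was also highest in flox for the 3 of 20 listed stroma markers (121 to 1069 in KO, 81.1 to 338 in flox). So it was for 1 of 16 endothelial markers, Pecam1 (38.3 to 240 in KO, 15.4 to 95.6 in flox), and for the 5 of 30 T cell markers (290 to 718 in KO, 186 to 464 in flox). KO replicate 1 had the highest sum of leukocyte, stroma and endothelial markers and the lowest of enterocyte markers. The part of these cells in the result was not tested.

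Per 1000 counts of pan-leukocyte markers, the 6 genes summed to 75.0 to 298 in KO, with a median of 175, and to 44.3 to 175 in flox, with a median of 95.8. These ranges overlap. With the log2 sum of the pan-leukocyte markers as a covariate in the same fit, chosen after seeing the data, the log2 differences of the 6 ran from -0.14 for Fcrla to 0.42 for Mzb1, and 3 of them were below 0. The listed T cell markers as the covariate gave -0.38 for Mef2c to 0.50 for Mzb1, with 4 below 0. Both marker sums come from genes that the authors had selected for a difference in the same contrast.

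**Figure D3:**
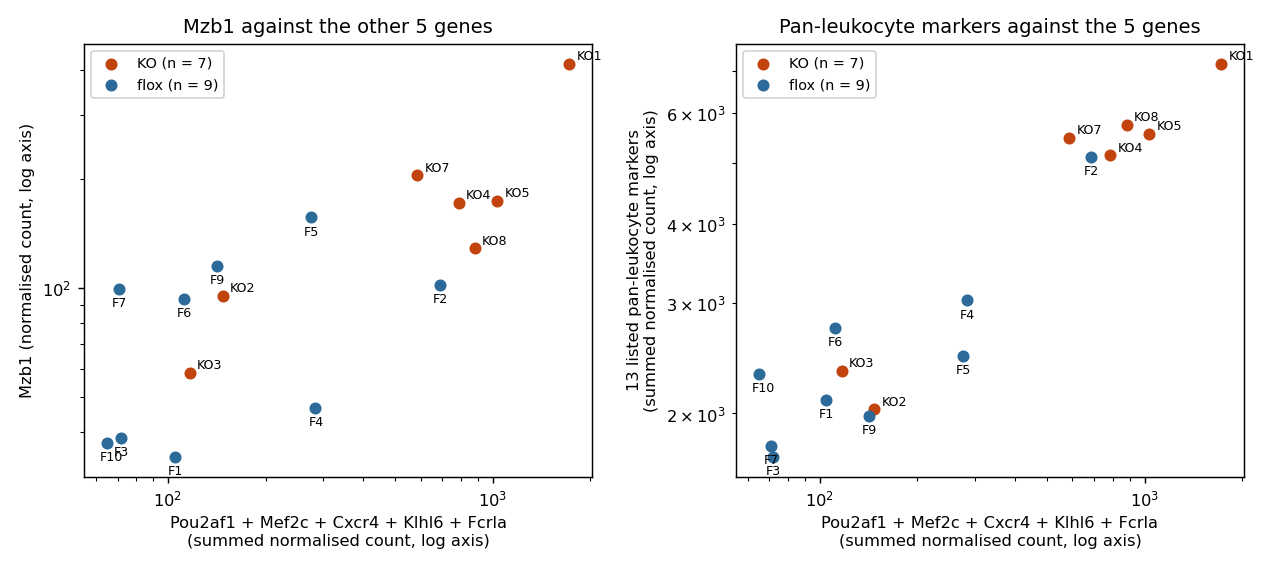
Summed normalised count of the 5 genes other than Mzb1 (x, log axis) against Mzb1 (left) and against the 13 listed pan-leukocyte markers (right, both y axes log), 1 point per KO (orange) or flox (blue, F) library. On the right, flox replicate 2 lies with the high KO libraries and KO replicates 2 and 3 lie with the other flox libraries. On the left, flox replicates 5, 6, 7 and 9 hold more Mzb1 than flox replicates 1, 3, 4 and 10.

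Other B cell genes in the table were also higher in KO. Of 36 B cell markers 7 (19.4%) were listed, beside 14.8% of all genes. Pou2af1 and Fcrla, taken from the table by the rule, are among the 7. Without them the share was close to that of all genes. The 5 others were all higher. Their median log2 fold change in the authors' deposited table was 1.32, against -0.23 over all 2438 listed genes and 0.75 over the higher ones. Listed genes with a mean of 50 to 200 normalised counts, the range that holds all 6 genes, were mostly higher too (427 of 509, median 0.59), against 1.82 for the 6. The 5 B cell genes were Tnfrsf13b, the receptor TACI for the survival factors BAFF and APRIL, at 105 ± 60.4 in KO and 42.2 ± 24.9 in flox; Vpreb3, a protein of the early B cell receptor complex, at 49.4 ± 28.0 in KO and 16.9 ± 13.3 in flox; the lymphoid transcription factors Ikzf3 (Aiolos, ratio 1.83) and Bcl11a (1.75); and the light chain constant gene Iglc3 (2.71). All SDs are over 7 KO and 9 flox libraries. The defining B cell markers Ms4a1, Cd79a, Cd79b and Pax5 and the constant genes Ighm and Igkc were not listed and were not analysed here, so the identity of the cells rests on genes that are not all exclusive to B cells.

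Of 30 germinal centre genes 11 (36.7%) were listed, beside 14.8% of all genes. Klhl6, Mef2c and Cxcr4, which the rule took from the table, are 3 of them and raise that share. Of the 8 others 7 were higher and 1 lower, with a median of 1.64 on the log2 scale. Mef2b, a MADS-box factor that drives Bcl6 in germinal centre B cells, stood highest of the list at 2.59 in the authors' deposited table, with means of 44.3 ± 54.8 in KO and 7.37 ± 7.46 in flox (SD, n = 7 and 9), and was at 0 in at least 1 library of each group. Mybl1 and Gcsam, both low in count, were 5.43-fold and 4.86-fold higher in mean. Gpr183 averaged 36.9 ± 22.5 in KO and 9.51 ± 10.1 in flox. This oxysterol receptor guides B cells to the follicle edge rather than into the germinal centre. Its place among the 7 higher genes is thus no mark of germinal centre cells. S1pr2, which confines germinal centre B cells, and Lmo2 were 2.48-fold and 2.20-fold higher, and the repressor Bach2 1.57-fold. Efnb1, an ephrin ligand abundant in epithelium, was lower at 1133 ± 99.9 in KO and 1538 ± 240 in flox. Bcl6, Fas and Rgs13 were not listed and were not analysed here.

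Among plasma cell genes 8 of 24 (33.3%) were listed, beside 14.8% of all genes, with Mzb1 included by the rule. The 7 others were all higher, with a median of 1.58 on the log2 scale. Irf4, the transcription factor of plasma cell differentiation, averaged 90.9 ± 51.3 in KO and 33.3 ± 21.4 in flox. The heavy chain constant genes Ighg2b, Ighg2c and Ighg1 were 4.57-fold, 4.22-fold and 3.24-fold higher, with Ighg2b at 897 ± 679 in KO and 196 ± 184 in flox. These constant genes are near copies of each other, so the split of reads between them is uncertain. Slamf7 and Cd28, which T and other cells express too, were 1.84-fold and 2.99-fold higher. Sec11c, a signal peptidase subunit of all secretory cells, differed least, at 790 ± 74.4 in KO and 630 ± 60.6 in flox. Jchain, Xbp1, Prdm1, Sdc1 and Igha, the main genes of mucosal plasma cells, were not listed and were not analysed here. In the limma fit described below, which called 2.72% of all genes as higher, the genes of these 3 lists with an adjusted p under 0.05, other than the 6, were Bcl11a, Sec11c, Ighg1 and Cd28 as higher in KO and Efnb1 as lower.

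Partners of the 6 genes were listed in part, where 14.8% of all genes were listed. In B cell receptor signalling, 7 of 25 genes (28%) were listed, 5 higher and 2 lower. The shares listed were 28.6% for the octamer genes, 30% for the MEF2 genes and 25% for the CXCR4 axis. These 3 shares include Pou2af1, Mef2c and Cxcr4, which the rule took from the table, and are lower without them. The kinases Syk (299 ± 154 in KO, 147 ± 81.7 in flox) and Btk (67.9 ± 41.9 in KO, 29.7 ± 23.0 in flox) were higher, as were Prkcb (2.60-fold), the adaptor Pik3ap1 (2.24-fold) and the lipid phosphatase Inpp5d (1.64-fold). Vav2 and Grb2, which epithelial cells also express, were lower by log2 fold changes of -0.29 and -0.22. Of 7 octamer genes, Pou2f2, a POU factor that Pou2af1 binds, was the only other one listed, at 80.2 ± 48.9 in KO and 25.2 ± 24.5 in flox. Of 10 genes of the MEF2 family and its regulators, the histone deacetylase Hdac9 was listed beside Mef2b and Mef2c, 4.56-fold higher. Of 20 genes of the CXCR4 axis, Rgs1, Rac2 and Dock2 were higher by log2 fold changes of 0.66, 0.74 and 0.98, and the G protein subunit Gnai2 was lower at -0.27. The ligand Cxcl12 was not listed.

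**Figure D4:**
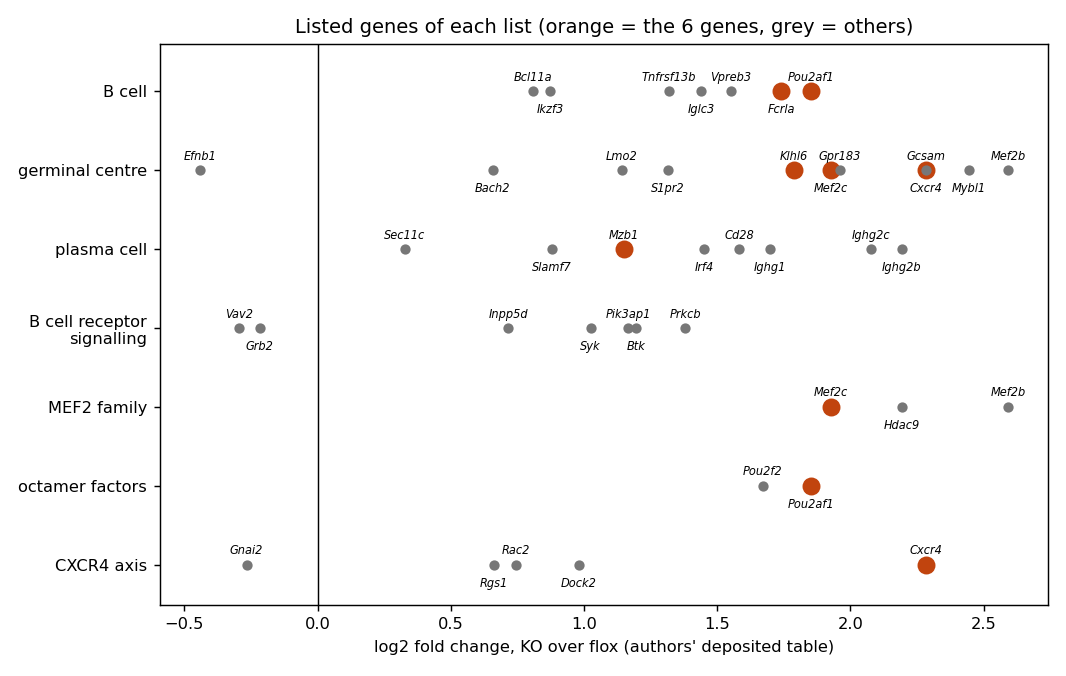
Log2 fold change of KO over flox, from the authors' deposited table, for every listed gene of 7 lists, with the 6 genes in large orange points and others in grey. All listed B cell and plasma cell genes lie right of 0, and Efnb1, Vav2, Grb2 and Gnai2 lie left of it.

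The genes most like the 6 were sought among the 2333 other genes of the table that averaged 10 normalised counts or more, by Pearson's r over the 16 group-centred libraries. With the mean profile of the 6, Syk was first (r = 0.96, rho = 0.97), then Grem1, a BMP antagonist of stromal cells (0.96, rho = 0.95), Pou2f2 (0.96, rho = 0.95), Myo5a, Msn, Fscn1, Irf5, Rftn1, Lpcat1 and Vpreb3, down to 0.94. In all, 45 genes reached 0.9, while the median over the 2333 was -0.10. Taken singly, Pou2af1 was closest to Syk (r = 0.99, rho = 0.99), Cyp1b1 and Myo5a. Mef2c and Fcrla were closest to Pou2f2 (0.98 and 0.96) and then Prkcb, followed by Syk for Mef2c and Ripor2 for Fcrla. Cxcr4 was closest to Btk (0.96), Pou2f2 and Ly86, and Klhl6 to the leukocyte gene Laptm5 (0.95), Lmo2 and Rftn1. For Mzb1 the nearest were Nkx2-3 (0.88, rho = 0.88), the sialyltransferase St6gal1 (0.88) and the RNA helicase Ddx10 (0.88), and 0 genes reached 0.9, against 18 to 42 for the other 5. These values describe the libraries and carry no p.

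The size of the difference depended on which libraries and which scale were used. In a limma fit of every listed gene that averaged 10 or more, 1 of the 6 had an adjusted p under 0.05, Pou2af1 at 0.0499, beside 7.7% of the 16488 genes called in either direction and 2.72% as higher. In edgeR on recovered reads it was 1 of 6 as well, Klhl6, beside 8.02% in either direction and 3.03% as higher. All 6 had an unadjusted p under 0.05 in both fits. The limma call of Pou2af1 was lost with a pseudocount of 0.5 or 10 (adjusted p = 0.0501 and 0.0505) and with quantile scaling (0.251), over a range of 0.019 to 1 across its alternatives. With limma, all 6 passed without KO replicate 3, 5 without flox replicate 2, 2 without KO replicate 2 and 0 without any other 1 library. Since the authors' test of these very libraries chose the genes, none of this is separate support. Without the 5 flox libraries with pancreatic transcripts, which leaves flox replicates 1, 2, 3 and 5, the log2 difference was 1.29 for Cxcr4 and 0.97 for Fcrla, against 2.19 and 1.64 with all libraries, and it was 1.15 to 1.72 for the other 4 genes. In that limma fit 0 of the 6 were called, with adjusted p from 0.355 to 1, and 2 had an unadjusted p under 0.05. Quantile scaling over the listed genes gave 0.75 for Mzb1 to 1.70 for Cxcr4, with Fcrla at 1.07. With that scaling 0 of the 6 were called in limma, and 5 had an unadjusted p under 0.05.

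**Figure D5:**
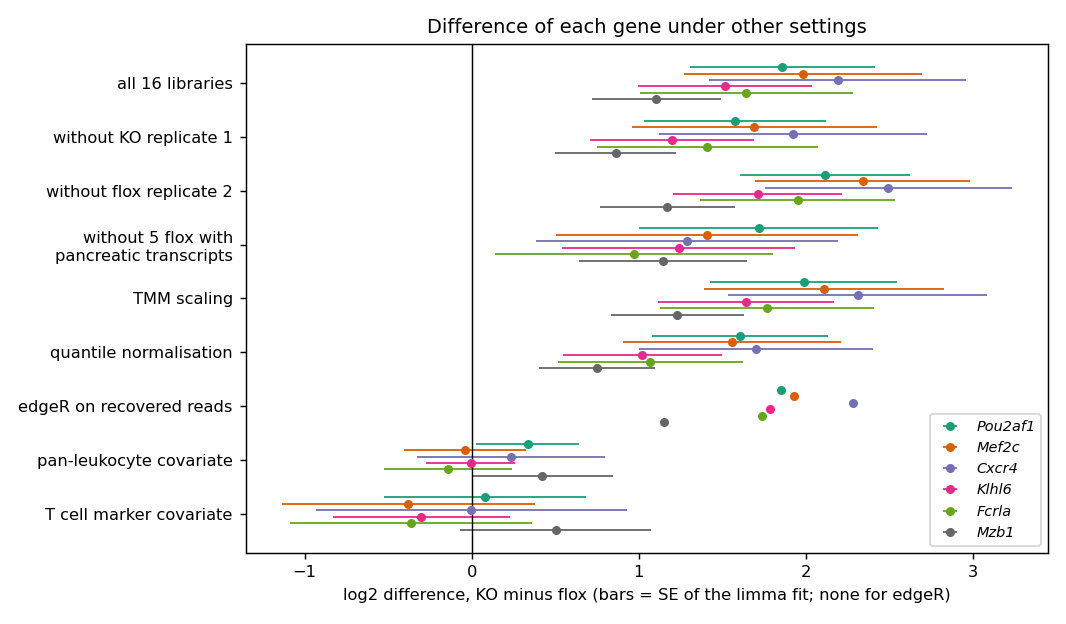
Log2 difference, KO minus flox, of each of the 6 genes with all 16 libraries and under 8 other settings, with the SE of the limma fit as bars. Values stay above 0 when KO replicate 1, flox replicate 2 or the 5 flox libraries are left out, and lie around 0 with the sum of pan-leukocyte or T cell markers as a covariate.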

How the data were processed

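Poly-A RNA sequencing libraries of duodenal epithelium (7 KO, 9 flox) came from a NEBNext Ultra kit with poly-T beads, per the labels' protocols. Per the submitters' processing notes, the tools were DESeq2 1.20.0, HISAT2 2.0.5 and featureCounts 1.5.0-p3, and the build was GRCm38 (mm10). Their settings are not given in these sources. The deposited signal in each library column is a read count divided by a size factor, as the values show. Divided by the library's smallest step, 100% of values above 0 came out whole to within 0.0001 reads, with size factors of 0.878 to 1.38. An automatic check could not test this for KO replicates 1 and 3. The authors' deposited table also gives log2 fold changes, p-values and adjusted p-values. Its adjustment ran over 16488 genes. Any 2 libraries of a group differed by a chi-square of at least 16.7 times its degrees of freedom, so none was a duplicate.

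From these values, limma 3.58.1 (trend, robust) was fitted on log2(value + 1) for the 2339 genes that averaged 10 or more. Adjustment (Benjamini-Hochberg, two-sided p) ran over 16488 genes, with a p of 1 for those not listed. A fold change on this scale understates low genes. edgeR 4.0.16 on the recovered reads was an alternative and called 1323 genes. Both were tested on simulated counts. Means ± SD and ratios are of normalised counts. The genes, lists and rules for named genes were chosen with earlier results of these data known. Named are the 6 genes, every listed gene of the B cell, germinal centre, plasma cell, receptor signalling, CXCR4, MEF2 and octamer lists, and the nearest profiles (10 for the mean, 3 per gene). Of the lists fixed for context, 0 of 20 myeloid genes were listed, 2 of 12 mast cell, 2 of 10 follicle epithelium, 2 of 10 follicular dendritic cell and 14 of 25 proliferation genes. No batch is given in the labels. The libraries are numbered in each group, and 6 numbers occur in both.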

Additional observations from a re-analysis of the deposited data

Results flagged for a closer look

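In 14 sets of values (6 genes and their sum, in each group), gaps between normalised counts were set against Dixon's limit for that group size. A library was marked when its gap to the nearest other, as a share of the range, exceeded the limit. For values on a normal curve, chance does so in about 1 set in 20. These counts were not on a log scale and were skewed, as for Mef2c in flox (38.3 ± 52.0, SD, n = 9), so that rate need not hold. The sets share libraries and are not independent, and 6 were marked. Flox replicate 2 was high for Pou2af1 (232 normalised counts, next 116), Fcrla (106, next 34.0), Mef2c (172, next 47.8) and the sum of the 6 (788, next 432). KO replicate 1 was high for Klhl6 (329, next 134) and Mzb1 (416, next 205).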

How the results depend on the processing

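The log2 differences of the 6 genes stayed above 0 with a pseudocount of 0.5 or 10, no filter, TMM or quantile scaling, edgeR, the replicate block, without the 5 flox libraries with pancreatic transcripts and when each library was left out. Leaving out 1 library gave 0.86 for Mzb1 at the lowest and 2.76 for Cxcr4 at the highest, and between 0 and 6 of the genes under an adjusted p of 0.05 in limma (6 without KO replicate 3, 5 without flox replicate 2). With the T cell marker sum as a covariate, Pou2af1 was 0.082, Klhl6 -0.30, Fcrla -0.36, Mef2c -0.38 and Cxcr4 -0.0018. The median was 0.28 for the other listed B cell genes, -0.13 for germinal centre genes and 0.34 for plasma cell genes. With the pan-leukocyte sum these were 0.33, -0.0064, -0.14, -0.040 and 0.24, with medians of 0.30, 0.17 and 0.47. Adding the covariate takes out what the genes share with these markers by its construction. The limma count of 1269 listed genes (449 higher, 820 lower) was 355 with quantile scaling (192 higher, 163 lower), 6 and 11 with these covariates, 11 without the 5 flox libraries, and 381 in edgeR with KO replicates 1 and 3 left out, where all recovered reads gave 1323. TMM moved the median of all genes by 0.13 and quantile scaling by 0.26, and with TMM 692 were higher and 239 lower. Leaving out 1 library gave 518 to 1458, with KO replicates 1, 5 and 7 and flox replicates 3, 4 and 10 at 645, 622, 518, 615, 838 and 646. The median r of the 5 Mzb1 pairs was 0.62, 0.56 with quantile scaling, 0.82 without the 5 flox libraries and 0.51 to 0.69 with 1 library left out, while that of the 10 other pairs was 0.92 or more in the last case. Of 314 alternative values, 281 kept their direction and stayed within a set limit. The limit was 1 SD between libraries for genes and lists, 1 SD between gene pairs for correlations, and 1.5 times for counts. For the 6 genes that SD was 0.85 to 1.67, which is wide beside their differences. Mzb1 at 0.42 with the pan-leukocyte sum, against 1.10 in the main fit, was thus counted as kept. The cause of these shifts was not tested.

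Replicate numbers occurred in both groups for 6 pairs, whose deviations correlated from -0.43 to 0.37, with 1 KO library closest to its own number, so the numbers are not shown to pair the mice. With the replicate block, 9 listed genes were called and 0 of the 6, whose log2 differences were 1.13 to 1.63. Genes of few reads, such as Mef2b and Gcsam, are limited by depth.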

Other observations

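Immunoglobulin genes were looked at after their values were seen. The table held 25, of which 20 were V genes, and all 25 were higher in KO, beside 1150 of all 2438 listed genes. Listing had already selected for a difference. The constant genes Ighm, Ighd, Igkc, Igha, Iglc1 and Iglc2 were not listed, and other unlisted immunoglobulin genes were not counted. The median of the 25 in the authors' deposited table was 1.75 on the log2 scale. Summed, the 25 ran from 867 to 4811 normalised counts in KO (median 1588) and from 288 to 1318 in flox (median 549). KO replicates 1, 5 and 7 held 4811, 3454 and 3254, the other KO libraries 867 to 1588, and flox replicate 2 was the highest flox library. KO replicate 8 held 1588, while its sum of the 6 genes was 1009, above the 790 of KO replicate 7. V genes are close copies of each other, and each averaged 5.26 to 81.6 normalised counts, so reads could be split among them.

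Proliferation genes did not follow the 6 genes in every library. The 14 listed of 25 summed to 2579 to 5590 in KO and 1036 to 3317 in flox. KO replicate 3, the lowest KO library for the 6 genes, held 4398, second to KO replicate 1. The listed mast cell genes Mcpt1 and Mcpt2 summed to 44.2 to 163 in KO and 17.2 to 58.3 in flox. KO replicate 3 was highest there and KO replicate 1 lowest in KO.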
